A study of Mus musculus with 8 samples.

Results

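The 9 genes described here make, cut and bind hyaluronan, and they were taken by symbol from a count table of 28901 genes. They are the synthase genes Has1, Has2 and Has3, the degradation genes Cemip, Cemip2, Hyal1 and Hyal2, the receptor gene Cd44 and the proteoglycan gene Vcan. All 9 were in the table, and all 9 passed the filter on low counts that left 17038 genes for testing. The rule used symbols and no threshold, but the set was selected on results of these libraries: Cemip, through its measured fold change between Brd and control, was what pointed to it. The members' values in that comparison are therefore a description and carry no test, and the other comparisons were also known when the genes were chosen.

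The libraries are RNA sequencing of MC3T3-E1, a clonal line of mouse pre-osteoblasts from the skull, with a poly(A)-enriched or ribo-depleted protocol, in 4 groups of 2 titled control, Brd, NM-DMSO and NM-Brdi. The design text names DMSO, a solvent, and I-BRD9 at 10 µM, an inhibitor of the bromodomain protein BRD9, a subunit of a chromatin remodelling complex. A medium for osteogenic differentiation, also named, held a glycerol phosphate at 10 mM, ascorbic acid at 0.25 mM and dexamethasone at 0.1 µM. No label says which group received that medium, what control and Brd cultures received, how long treatment lasted or what NM stands for, so groups keep their titles. The labels give no genotype and do not say whether the 2 libraries of a group are separate cultures. The p-values thus rest on the variation of these 8 libraries alone, and that variation could be technical.

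Total counts per library ran from 16918182 to 24555028. Levels are TMM-normalised read counts in CPM, that is, relative to the library total over tested genes, multiplied by its TMM factor. A level of 1 CPM corresponds to between 16.4 and 26.1 counts, depending on the library. The NM-DMSO libraries stood apart from each other. The median gene differed between them by 0.38 on the log2 scale, against 0.08 to 0.11 in the other groups. For members, log2 fold changes of a group against NM-DMSO are also given without its replicate 1 or 2 where that changes a call or a direction. For interactions, a range over the alternatives is given instead. The values of pathway genes against NM-DMSO are given with both replicates only. Of 7 osteoblast markers all were detected in every library, although Ibsp ran from 2.49 to 1940 CPM, with a summed level of 10600 to 11400 CPM in control, 9660 to 9890 in Brd, 7760 to 9420 in NM-DMSO and 6170 to 6400 in NM-Brdi. The sum is mostly Col1a1 and Col1a2. Of the 7 markers 4 were lower in Brd than in control by edgeR and, against NM-DMSO, 5 were lower in NM-Brdi, the same comparisons in which Cemip was higher. Of all tested genes 3.45% and 1.05% were called lower in these comparisons. Sp7 had log2 fold changes of -1.08 and -0.99 in them, Alpl -2.21 and -2.67 and Ibsp -1.98 and -5.03. Col1a1 (-0.06 and -0.50) and Col1a2 (0.24 and -0.32) were called in neither. The part of these differences in the results was not tested. The macrophage and osteoclast list summed to 41.7 to 83.5 CPM, nearly all of it Ctsk, with Ptprc and Adgre1 at 0.183 CPM or less. The chondrocyte list summed to 201 to 336 CPM, mostly from Sox9 and Col2a1, with Acan at 0 in 7 libraries. The adipocyte and endothelial markers in the table were all under 1 CPM.

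Hyaluronan is a long unsulfated sugar polymer of the matrix around cells. Synthases in the plasma membrane build it from UDP-sugars and push the chain out of the cell. CEMIP and hyaluronidases cut it into shorter chains, and CD44 binds it at the cell surface. Versican, the product of Vcan, ties it into larger aggregates that link proteins stabilise, and such a loose matrix is typical of immature mesenchyme.

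Cemip and Vcan separated the groups in different ways, as described further on, so the 250 bases before their RefSeq start sites (GRCm38.p6, minus strand) are shown, 5′ to 3′. Capitals mark matches on either strand to the TATA box letters TATAAA or the GC box letters GGGCGG. The Cemip stretch is chr7:84086506-84086755 and the Vcan stretch is chr13:89742513-89742762.
Cemip: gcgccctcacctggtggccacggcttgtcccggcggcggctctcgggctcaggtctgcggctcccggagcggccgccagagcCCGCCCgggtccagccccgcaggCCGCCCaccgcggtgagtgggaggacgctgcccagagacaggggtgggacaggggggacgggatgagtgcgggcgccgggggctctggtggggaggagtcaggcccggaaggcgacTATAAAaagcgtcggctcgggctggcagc
Vcan: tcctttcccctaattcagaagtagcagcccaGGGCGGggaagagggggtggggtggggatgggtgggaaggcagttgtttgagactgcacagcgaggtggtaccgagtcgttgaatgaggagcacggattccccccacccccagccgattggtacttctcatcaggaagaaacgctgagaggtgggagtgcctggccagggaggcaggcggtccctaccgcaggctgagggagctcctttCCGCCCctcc
The Cemip stretch held TATAAA with its first base 29 bases before the start and GGGCGG at 168 and 145 bases before it. The Vcan stretch held GGGCGG at 219 and 10 bases before the start and no TATAAA. Among 32851 such stretches of mouse genes, 12.4% held TATAAA and 32.7% held GGGCGG. Neither sequence held the AP-1 letters TGANTCA, the CRE letters TGACGTCA, the TEAD letters GGAATG or the RUNX letters TGTGGT, which 6.75%, 1.55%, 12.6% and 14.0% of the stretches held. Guanine and cytosine made up 75.2% of the Cemip stretch and 62.4% of the Vcan stretch, against a median of 52.4%. Sequences of the same table for Cd44, Has1, Hyal1 and Hyal2 were searched as well, so 6 of the 9 members were matched. TGACGTCA was found in Has1 alone of these 6, at 83 bases before its start.

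Per kilobase of exon, Cd44 had the highest level of the 9 and Has1 the lowest. Averaged over the 8 libraries, Cd44 stood at 75.2 CPM per kb, Cemip2 at 39.4, Cemip at 23.1 and Vcan at 9.97. Has2 followed with 8.34 and Hyal2 with 7.88, and these neighbours changed places when the longest transcript was used as the length. Hyal1 (1.09), Has3 (0.50) and Has1 (0.21) were far lower. This pooled order is not that of each group: in control Has2 (16.8) and Vcan (15.4) stood above Hyal2 (7.52) and Cemip (5.21). The group means of Cd44, Hyal2 and Cemip2 differed between the highest and lowest group by 1.22-fold, 1.27-fold and 1.30-fold. Cemip differed by 7.53-fold, Has1 by 3.81-fold, Has2 by 3.45-fold, Vcan by 3.33-fold, Has3 by 2.06-fold and Hyal1 by 2.02-fold.

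**Figure D1:**
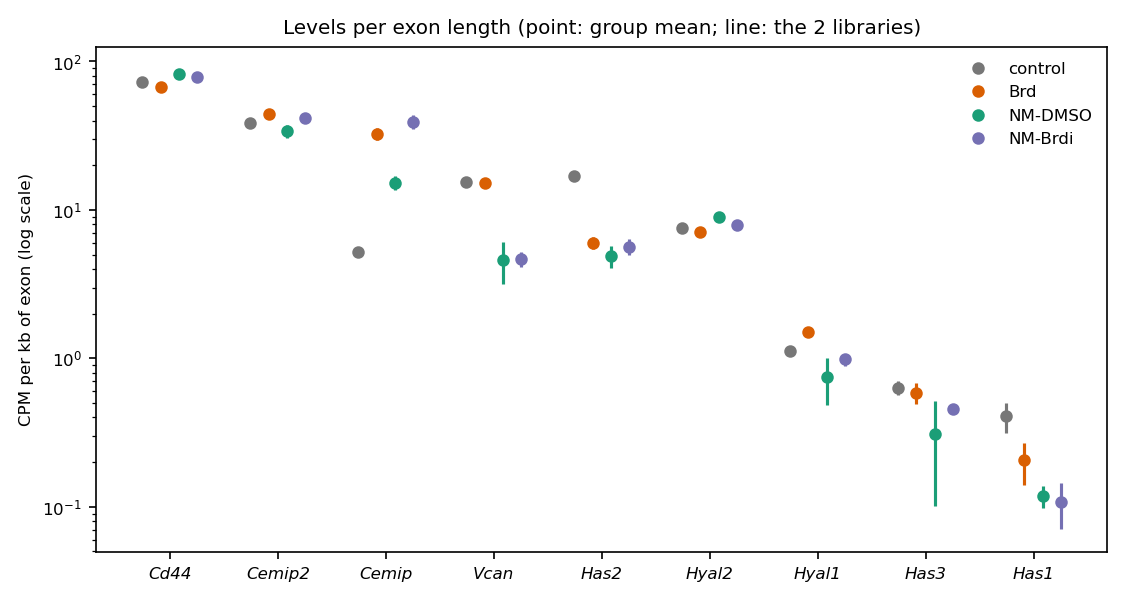
Levels of the 9 genes in CPM per kb of exon on a log axis, with a point for each group mean and a line joining the 2 libraries of the group. Cemip spans 5.21 in control to 39.3 in NM-Brdi, whereas the points of Cd44 lie between 67.2 and 82.2.

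Has2, which encodes the synthase of the longest chains and is the main one in many mesenchymal cells (chromosome 15, 56665627 to 56694539, GRCm38), was highest in control. Its level was 74.2 and 68.4 CPM in the control libraries and 23.2 and 27.8 CPM in Brd. In NM-Brdi it was 21.1 and 26.8 CPM, with 17.3 and 24.1 CPM in NM-DMSO. Both control libraries lay above all 6 others, and the 6 others overlapped across Brd, NM-Brdi and NM-DMSO. Brd had 2.79-fold less Has2 than control (log2 fold change -1.48, SE 0.20, n = 2 and 2), a description given without a test. In a bulk library a lower level in each cell and fewer cells with the transcript cannot be told apart.

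Between control and NM-DMSO, Has2 was 3.45-fold higher in control (log2 fold change 1.79, SE 0.20; edgeR quasi-likelihood test with Benjamini-Hochberg adjustment over all tested genes, adjusted p = 0.0014). The call held without either NM-DMSO library, with log2 fold changes of 1.57 without replicate 1 and 2.05 without replicate 2. Between NM-Brdi and NM-DMSO the log2 fold change was 0.21 (95% interval -0.24 to 0.66, adjusted p = 0.532). It was -0.0019 without NM-DMSO replicate 1 and 0.47 without replicate 2, and of the 14 alternatives only the second passed the test (adjusted p = 0.00614). Brd and NM-Brdi differed by 0.09 (95% interval -0.36 to 0.54).

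The Has2 difference of Brd from control and that of NM-Brdi from NM-DMSO were compared directly by the difference between them, the interaction, which contains the comparison used in choosing the genes. It was -1.69 (SE 0.27, adjusted p = 0.0869 by edgeR) and missed the threshold. Over the 13 alternatives its adjusted p ran from 4.76e-09 to 0.597 with a negative sign in each, and 5 of them passed. Reads of Has2 could be shared with its antisense gene Has2os over 182 of 4237 exon bases, since the strand setting of the counting is not given. Has2os had 10 to 35 counts, at most 8.05% of those of Has2.

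Has1 and Has3, which encode the other synthases, were near the floor of the measurement. Has1 (chromosome 17, 17843323 to 17855205) had 44 and 24 counts in control, 20 and 11 in Brd, 9 and 14 in NM-DMSO, and 17 and 8 in NM-Brdi. In CPM that is 2.26 and 1.43 in control, 1.22 and 0.632 in Brd, 0.447 and 0.624 in NM-DMSO and 0.651 and 0.318 in NM-Brdi. The control libraries were again the highest, and the other groups overlapped except that Brd lay narrowly above NM-DMSO.
Control exceeded NM-DMSO by 3.42-fold (log2 fold change 1.77, SE 0.51, edgeR adjusted p = 0.0445). That call was lost in 8 of 14 alternatives, among them each fit without a control, Brd or NM-Brdi library (adjusted p = 0.0729 to 0.241), while the log2 fold change stayed between 1.40 and 2.07. No test of Has1 passed for NM-Brdi against NM-DMSO or Brd against NM-Brdi (adjusted p = 0.893 and 0.334). The log2 fold change between NM-Brdi and NM-DMSO was -0.14, or 0.12 without NM-DMSO replicate 2.

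Has3 (chromosome 8, 106870242 to 106884566) had 87 and 61 counts in control, 71 and 55 in Brd, 76 and 73 in NM-Brdi, but 13 and 74 in NM-DMSO. A single library, NM-DMSO replicate 1, was thus low. At 0.645 CPM it was 5.11-fold below its partner, and the other 7 libraries lay between 2.90 and 4.47 CPM. Has3 passed none of the edgeR tests with all 8 libraries and the filter on low counts. Without that filter it was called between control and NM-DMSO (1.01, adjusted p = 0.00709), where it stood at 1.02 with the filter (adjusted p = 0.204), 0.30 without NM-DMSO replicate 1 and 2.65 without replicate 2. Without NM-DMSO replicate 2 its log2 fold change between NM-Brdi and NM-DMSO was 2.16, and without replicate 1 it was -0.18. The gene shares 352 exon bases with Chtf8 on the opposite strand, which had 12 to 55 counts, so its values are uncertain. Per kilobase, Has2 exceeded Has1 by 20.3-fold to 90.0-fold and Has3 by 8.08-fold to 40.3-fold within each library.

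**Figure D2:**
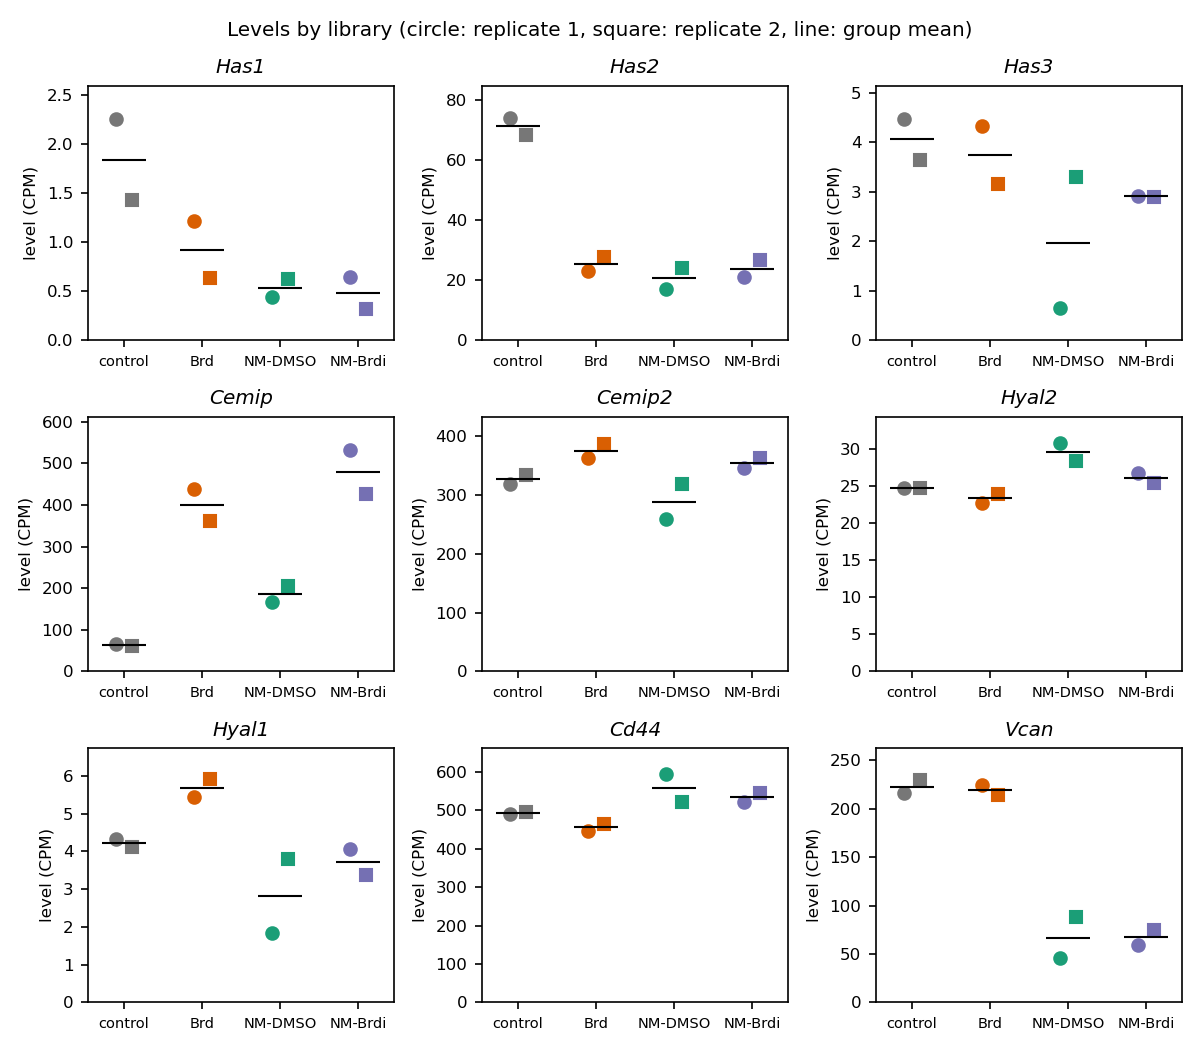
Level in CPM of each gene in each of the 8 libraries on linear axes from 0, with circles for replicate 1, squares for replicate 2 and a line at the group mean. Has2 is high in control alone, Cemip is low in control and high in Brd and NM-Brdi, and Vcan is high in control and Brd.

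Cemip, which encodes a secreted and membrane-associated protein needed for hyaluronan breakdown in fibroblasts, was lowest in control and highest in the groups with Brd in their title. The gene lies on chromosome 7, 83932857 to 84086502 (GRCm38), and its promoter carries the TATA box letters shown above. It stood at 66.6 and 60.9 CPM in control and at 439 and 362 CPM in Brd. It stood at 166 and 205 CPM in NM-DMSO and at 533 and 428 CPM in NM-Brdi. NM-Brdi and Brd overlapped with each other, and both lay above NM-DMSO, which lay above control.

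Brd had 6.28-fold more Cemip than control (log2 fold change 2.65, SE 0.17), again as a description. The comparison of NM-Brdi with NM-DMSO shares no library with it. There Cemip was 2.59-fold higher in NM-Brdi (log2 fold change 1.37, SE 0.16, 95% interval 0.99 to 1.75, edgeR adjusted p = 0.0123) and higher in 2 of 2 libraries. The log2 fold change was positive in all 14 alternatives, from 1.21 to 1.53, and 10 of them passed the test. The call was lost without NM-Brdi replicate 1 (adjusted p = 0.158), without control replicate 1 or 2 (0.0561 and 0.0553) and with the 4 NM libraries alone (0.256). Without NM-DMSO replicate 1 the value was 1.24 (adjusted p = 1.48e-08).

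Between control and NM-DMSO, Cemip was 2.91-fold lower in control (log2 fold change -1.54, SE 0.17, edgeR adjusted p = 0.00129). The log2 fold change ran from -1.68 to -1.38 over the 14 alternatives. The control libraries are also those of the comparison that pointed to Cemip, so this test is not independent of the selection. The same holds, through the Brd libraries, for the test of Brd against NM-Brdi. Brd and NM-Brdi differed by -0.26 (95% interval -0.64 to 0.11, adjusted p = 0.345). That difference passed the test in 4 alternatives, including both fits without an NM-DMSO library (adjusted p = 0.00646 and 0.00936), at -0.28 and -0.26. The interaction, which contains the comparison used in choosing the genes, was 1.28 (SE 0.23, adjusted p = 0.101). Over 13 alternatives its adjusted p ran from 5.57e-08 to 0.63, and 5 passed, all with a positive sign.

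Set against Has2 in the same library and per kilobase, Cemip was 0.311-fold and 0.308-fold the level of Has2 in control. The ratio was 6.54 and 4.50 in Brd, 3.33 and 2.95 in NM-DMSO, and 8.76 and 5.53 in NM-Brdi. Has2 thus exceeded Cemip in the control libraries alone. This ratio restates the levels above and has no test of its own.

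Cemip2, also called Tmem2, encodes a membrane protein related to CEMIP that was described as a cell-surface hyaluronidase in mouse cells (chromosome 19, 21778342 to 21858360). Its levels were 318 and 335 CPM in control, 363 and 387 in Brd, 259 and 319 in NM-DMSO, and 345 and 362 in NM-Brdi. Its groups lay close together, with the order Brd, NM-Brdi, control and NM-DMSO, and only control and NM-DMSO overlapped. NM-Brdi exceeded NM-DMSO by 0.29 on the log2 scale (95% interval 0.01 to 0.57, adjusted p = 0.217), which, of 14 alternatives, passed only without NM-DMSO replicate 2 (0.45, adjusted p = 1.38e-06). Control exceeded NM-DMSO by 0.18 (adjusted p = 0.281), or by 0.34 without that replicate (adjusted p = 4.68e-05). Of its exon bases 97 of 8520 overlap an antisense gene. Relative to Cemip2 per kilobase of exon, Cemip was at 0.136 in control, 0.447 in NM-DMSO, 0.747 in Brd and 0.949 in NM-Brdi, as means of 2 libraries. These ratios depend on the length used and would be higher with longest transcripts. Cemip has 12232 exon bases but 7111 in its longest transcript, and Cemip2 8520 and 6667.

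Hyal2, a hyaluronidase anchored at the cell surface (chromosome 9, 107567945 to 107572779), ran from 22.7 and 24.0 CPM in Brd to 30.8 and 28.4 CPM in NM-DMSO. Control had 24.7 and 24.8 CPM and NM-Brdi 26.8 and 25.5 CPM. No neighbouring groups overlapped, yet the steps were small, at most 1.13-fold. The 4 tested differences of Hyal2, the interaction included, had adjusted p from 0.12 to 0.846 by edgeR. The difference between control and NM-DMSO passed without NM-DMSO replicate 2 (-0.31, adjusted p = 0.0132).

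Hyal1, the lysosomal hyaluronidase, begins 4147 bases beyond Hyal2 on the same strand (chromosome 9, 107576927 to 107581710). It stood at 4.32 and 4.11 CPM in control, 5.43 and 5.92 in Brd, 1.84 and 3.79 in NM-DMSO and 4.06 and 3.38 in NM-Brdi. Again NM-DMSO replicate 1 was the lowest library. Hyal1 passed none of the edgeR tests with all 8 libraries. Between Brd and NM-Brdi its value of 0.61 (adjusted p = 0.268) passed with voom (adjusted p = 0.013) and in 3 other alternatives. Between control and NM-DMSO it was 0.58, or 0.16 without NM-DMSO replicate 1 and 1.20 without replicate 2 (adjusted p = 0.000865), and between NM-Brdi and NM-DMSO it was 0.39, or -0.018 without replicate 1 and 1.02 without replicate 2 (adjusted p = 0.00397). Its values are uncertain, since 1920 of its 3777 exon bases are also exons of Naa80, which had 144 to 292 counts against 37 to 106 for Hyal1.

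Cd44, which encodes the main hyaluronan receptor (chromosome 2, 102811141 to 102901665), was abundant in every library. It stood at 490 and 496 CPM in control, 446 and 465 in Brd, 594 and 520 in NM-DMSO and 523 and 544 in NM-Brdi. The Brd libraries were the lowest and NM-DMSO replicate 1 the highest. Between control and NM-DMSO the log2 fold change of Cd44 was -0.18 (edgeR adjusted p = 0.211), or -0.27 without NM-DMSO replicate 2. Between NM-Brdi and NM-DMSO it was -0.16 without replicate 2 and 0.04 without replicate 1. With all 8 libraries the log2 fold change between NM-Brdi and NM-DMSO was -0.06 (95% interval -0.30 to 0.17, adjusted p = 0.719), and that between Brd and NM-Brdi was -0.23 (95% interval -0.46 to 0.01, adjusted p = 0.204). The second difference passed in 4 alternatives, including both fits without an NM-DMSO library. These intervals exclude a change of 1.5-fold in either direction.

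Vcan, which encodes the large hyaluronan-binding proteoglycan versican (chromosome 13, 89655312 to 89742509), parted the groups by the prefix NM. It stood at 216 and 230 CPM in control and at 225 and 214 CPM in Brd. In NM-DMSO it stood at 45.7 and 88.3 CPM and in NM-Brdi at 59.7 and 75.3 CPM. The libraries without the prefix lay well above those with it, and within each kind the groups overlapped.

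Control had 3.33-fold more Vcan than NM-DMSO (log2 fold change 1.73, SE 0.28, edgeR adjusted p = 0.00682). The call was lost without control replicate 1 or 2 (adjusted p = 0.0516 and 0.0588) and with those 4 libraries alone (0.0845). The log2 fold change was 1.34 without NM-DMSO replicate 1 and 2.29 without replicate 2. Brd had 3.25-fold more than NM-Brdi (1.70, SE 0.28, adjusted p = 0.00858), with log2 fold changes from 1.54 to 1.88 over the alternatives. Here the call was lost whenever 1 of these 4 libraries was left out (adjusted p = 0.0651 to 0.104).

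The value for Brd against control was -0.02 (SE 0.27, 95% interval -0.64 to 0.60), and that for NM-Brdi against NM-DMSO was 0.01 (95% interval -0.62 to 0.64, adjusted p = 0.986). The second value turned with the library left out. It was -0.38 without replicate 1 (adjusted p = 0.00568) and 0.56 without replicate 2 (adjusted p = 5.03e-05), so no direction can be given for Vcan in this comparison.

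**Figure D3:**
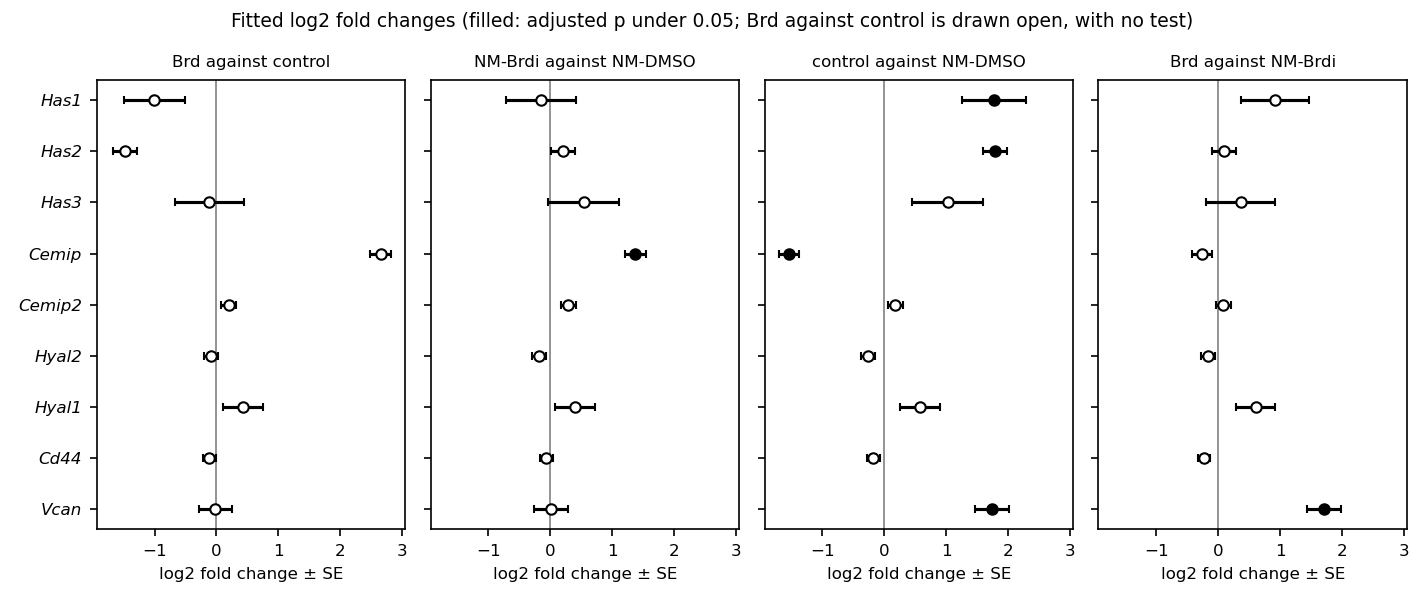
Fitted log2 fold changes with their SE (bars) for the 9 genes in 4 comparisons, first group minus second, filled where the adjusted p was under 0.05 and drawn open without a test for Brd against control. Cemip is the sole filled point for NM-Brdi against NM-DMSO and Vcan for Brd against NM-Brdi, and Has1, Has2, Cemip and Vcan are filled for control against NM-DMSO.

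Counted over the 9 genes, 1 passed the test between NM-Brdi and NM-DMSO, where 1.87% of all tested genes did. Between control and NM-DMSO 4 of 9 passed, against 23.4% of all tested genes, with Has1, Has2 and Vcan higher and Cemip lower in control. Between Brd and NM-Brdi 1 of 9 passed, against 10.5%. Between Brd and control Cemip and Has2 had an adjusted p under 0.05, against 6.58% of all tested genes, from which nothing is read. For the interaction 0 of 9 passed by edgeR, against 0.0411% of all tested genes, 0.0117% higher and 0.0293% lower. At an unadjusted p under 0.05 the interaction had Cemip and Has2, among 1580 of 17038 tested genes. DESeq2 called 2 of 9 members there, among 300 genes called. The interaction contains the comparison used in choosing the genes, so nothing is read from these counts. Control against NM-DMSO shares its libraries with the other comparisons, so these counts are not independent of each other.
Without NM-DMSO replicate 1 the count of members was 2 for NM-Brdi against NM-DMSO, 4 for control against NM-DMSO, 4 for Brd against NM-Brdi and 2 for the interaction, while 14.2%, 34.5%, 43.7% and 9.04% of all tested genes were called. Without replicate 2 these counts were 7, 9, 4 and 5, against 54.3%, 63.9%, 43.5% and 42.3% of all tested genes. Median log2 fold changes of the 9 genes were 0.21 for NM-Brdi against NM-DMSO, 0.58 for control against NM-DMSO and 0.09 for Brd against NM-Brdi. The medians of all tested genes were -0.004, -0.018 and -0.007. Groups did not overlap for 3, 8 and 6 members in these comparisons, against 47.6%, 68.2% and 71.7% of all tested genes, and for 7 members in Brd against control, against 66.1%.

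**Figure D4:**
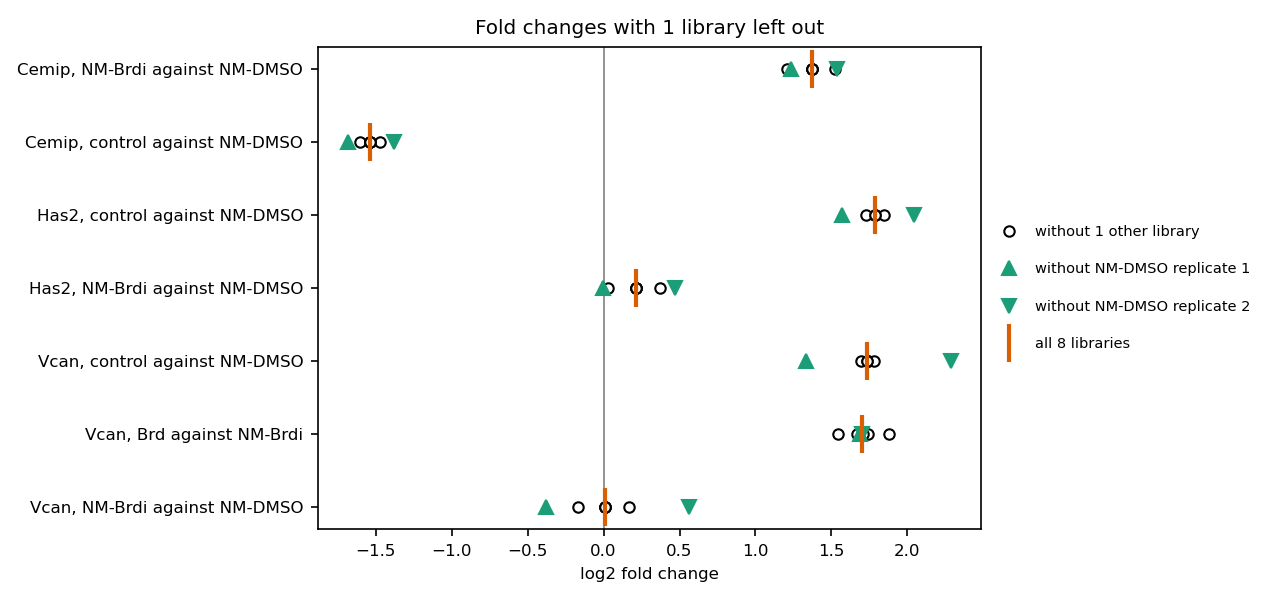
Log2 fold changes of Cemip, Has2 and Vcan with all 8 libraries (orange bar), without an NM-DMSO library (green triangles) and without another library (open circles). The values of Cemip between NM-Brdi and NM-DMSO stay between 1.21 and 1.53, whereas those of Vcan run from -0.38 to 0.56.

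Another 66 genes of hyaluronan precursor synthesis, breakdown, binding and signalling were examined in 6 lists, chosen with earlier results of these data known. Their counts and adjusted p-values, those for Brd against control included, describe these libraries and are not independent of that choice. Of the 66 genes, 60 were in the table and 45 were tested. Between NM-Brdi and NM-DMSO 3 were higher and 2 lower, against 0.816% and 1.05% of all tested genes. Between Brd and control 4 were higher and 5 lower, against 3.13% and 3.45%. Called in both were 4 genes, of which Adamts5 and Adamts9 were higher and Hapln1 and Mmp9 lower in both. Of all tested genes 214 (1.26%) were called in both, 210 of them in the same direction. Between control and NM-DMSO 15 were higher and 3 lower, against 12% and 11.5% of all tested genes. Between Brd and NM-Brdi 13 were higher and 3 lower, against 6.73% and 3.77%. With the libraries of a comparison alone the called genes were 0 for NM-Brdi against NM-DMSO and 25 for Brd against control. They were then 6 for control against NM-DMSO and 29 for Brd against NM-Brdi. Of all tested genes 0, 6413, 371 and 7215 were called in these fits. Leaving out any single library of control, Brd or NM-Brdi lowered the count of called pathway genes in each comparison. Without NM-DMSO replicate 1 the 4 counts of called genes, in the order given, were 20, 25, 26 and 32 in place of 5, 9, 18 and 16, against 14.2%, 31.5%, 34.5% and 43.7% of all tested genes. Without replicate 2 they were 32, 25, 34 and 32, against 54.3%, 31.2%, 63.9% and 43.5%.

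Of 12 tested precursor enzymes, which make the UDP-sugars that synthases use, 3 were called in at least 1 of the 4 comparisons of groups, against 29.1% of all tested genes. Ugdh, the enzyme that makes UDP-glucuronic acid, was lower in Brd than in control (72.3 ± 0.249 against 111 ± 4.59 CPM, mean ± SD, n = 2; log2 fold change -0.62, edgeR adjusted p = 0.0394). Between NM-Brdi and NM-DMSO 0 of the 12 were called by edgeR, by DESeq2 or by voom, with 1 at an unadjusted p under 0.05. By edgeR 1.87% of all tested genes were called there. Gfpt1, the first enzyme of the hexosamine pathway, was higher in control than in NM-DMSO (0.43, adjusted p = 0.0331) and in Brd than in NM-Brdi (0.57, adjusted p = 0.018). Gpi1, an isomerase of glycolysis, was lower in control than in NM-DMSO (-0.90, adjusted p = 0.0311). Hyal3, a further hyaluronidase gene, stood at 0.26 CPM or less in every group mean.

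Among other hyaluronan-binding proteins, Hapln1, a link protein that fastens versican or aggrecan to hyaluronan, differed between groups in all 4 comparisons. In the other lists Adamts5 and Mmp9 were also called in all 4. Hapln1 stood at 204 ± 9.11 CPM in control, 38.7 ± 2.76 in Brd, 10.2 ± 1.21 in NM-DMSO and 2.21 ± 0.415 in NM-Brdi (mean ± SD, n = 2 each). Hapln1 fell 5.26-fold from control to Brd (adjusted p = 0.000488) and 4.61-fold from NM-DMSO to NM-Brdi (adjusted p = 0.00453). Control exceeded NM-DMSO by 4.32 on the log2 scale (adjusted p = 2.88e-05). Hapln1 and Vcan are neighbours on chromosome 13 with 43659 bases and no annotated gene between them. Vcan thus shared with Hapln1 the higher level without the prefix NM, but its values for Brd against control and NM-Brdi against NM-DMSO were -0.02 and 0.01, against -2.40 and -2.21 for Hapln1.

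Ptx3, a pentraxin that takes part in cross-linking hyaluronan, was at 148 ± 25.0 CPM in NM-DMSO and rose in NM-Brdi, to 336 ± 64.0 CPM (log2 fold change 1.18, adjusted p = 0.0193). In control it was at 808 ± 9.40 CPM, 5.46-fold above NM-DMSO (adjusted p = 0.000196), and in Brd at 1180 ± 31.4 CPM. Hapln4, another link protein gene, was 2.68-fold higher in control than in NM-DMSO and 2.88-fold higher in Brd than in NM-Brdi (adjusted p = 0.0117 and 0.0108). C1qbp was lower in control than in NM-DMSO (-0.95, adjusted p = 0.0173), and Habp4 was higher in Brd than in control (0.86, adjusted p = 0.0078).

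Of 6 tested receptors other than Cd44, Hmmr was lower in Brd than in control (log2 fold change -0.79, adjusted p = 0.014) and lower in Brd than in NM-Brdi (-0.71, adjusted p = 0.0152). Hmmr encodes a hyaluronan receptor that also acts on the mitotic spindle. Tlr4 was higher in control than in NM-DMSO (1.10, adjusted p = 0.0148), as was Hmmr (0.51, adjusted p = 0.0333). Tlr2 was lower in Brd than in NM-Brdi (-0.88, adjusted p = 0.0114). Both encode innate immune receptors that hyaluronan fragments can engage.

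Of 6 tested versican proteases and partners, 4 were called in Brd against control, 2 in NM-Brdi against NM-DMSO and 4 in each of the other comparisons of groups. Of all tested genes 6.58% were called in Brd against control and 1.87% in NM-Brdi against NM-DMSO. The share was 23.4% in control against NM-DMSO and 10.5% in Brd against NM-Brdi. Adamts1 stood at 1410 ± 0.956 CPM in control and 1090 ± 67.4 in Brd, against 113 ± 27.4 in NM-DMSO and 78.7 ± 11.1 in NM-Brdi. It was 12.5-fold higher in control than in NM-DMSO and 13.9-fold higher in Brd than in NM-Brdi (adjusted p = 7.74e-05 and 7.16e-05), a split by the prefix NM like that of its substrate gene Vcan. Adamts5 and Adamts9 were 1.97-fold and 2.20-fold higher in NM-Brdi than in NM-DMSO (adjusted p = 0.0124 and 0.00763) and, in Brd, 1.47-fold and 1.39-fold above control (0.0317 and 0.0493). Adamts5 was also 2.44-fold higher in control than in NM-DMSO and 1.82-fold higher in Brd than in NM-Brdi (edgeR adjusted p = 0.000648 and 0.00415). Adamts4 was 2.34-fold lower in Brd than in control (adjusted p = 0.0245), 2.85-fold higher in control than in NM-DMSO (0.00675) and 2.37-fold above NM-Brdi in Brd (0.0179). Fbn1, whose microfibrils bind versican, exceeded control in Brd by 3.50-fold (adjusted p = 0.00239).

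Of 9 genes that link CD44 to the cell cortex or encode proteases tied to it, Ezr, Ank3 and Msn were higher in control than in NM-DMSO (log2 fold changes 1.37, 1.09 and 0.53, adjusted p = 0.000372, 0.000648 and 0.0279). They were also higher in Brd than in NM-Brdi (1.39, 0.56 and 0.60, adjusted p = 0.000383, 0.0126 and 0.0239). Mmp9, a gelatinase that docks on CD44, was low throughout, at 2.20 ± 0.241 CPM in control, 0.355 ± 0.0150 in Brd, 6.51 ± 0.930 in NM-DMSO and 1.78 ± 0.845 in NM-Brdi. Against its comparison group it was 6.10-fold lower in Brd (control, adjusted p = 0.018) and 3.65-fold lower in NM-Brdi (NM-DMSO, adjusted p = 0.041).

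**Figure D5:**
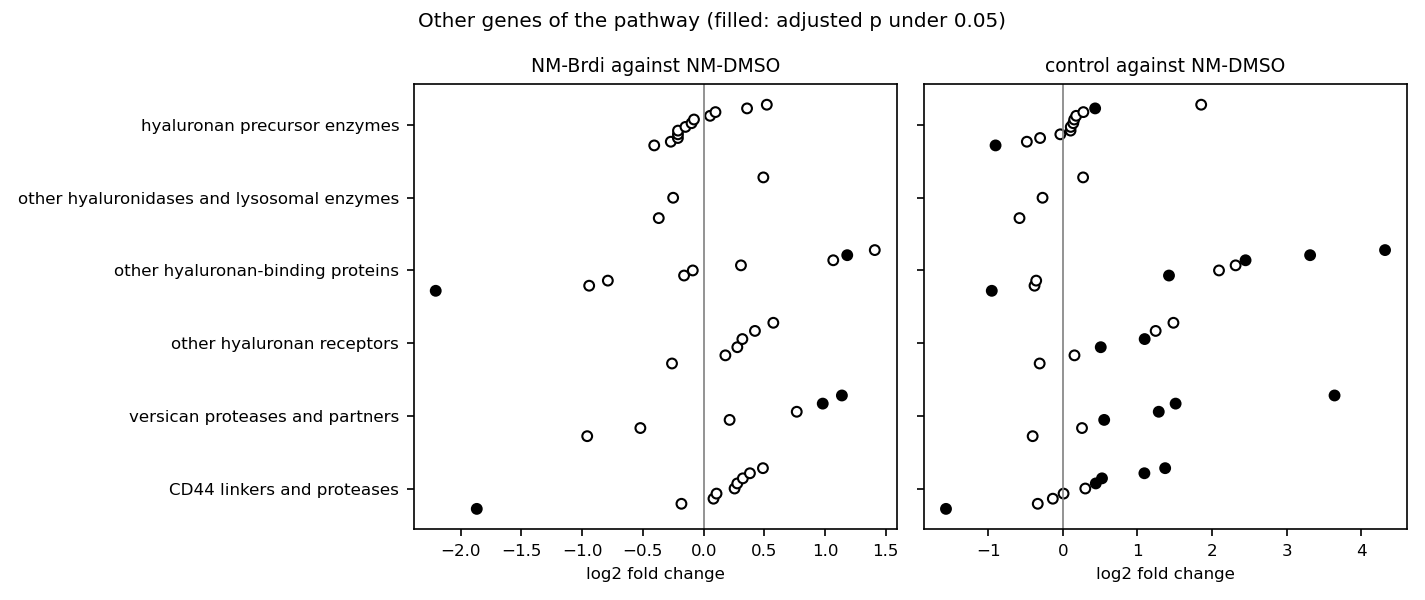
Log2 fold changes of the 45 tested genes (points), in a row for each of the 6 lists, for NM-Brdi against NM-DMSO (left) and control against NM-DMSO (right), filled where the adjusted p was under 0.05. On the left Hapln1 (-2.21) and Mmp9 (-1.87) are the filled points below 0, and on the right 15 filled points lie above 0 and 3 below.

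Likeness of pattern was measured as the root mean square difference of log2 CPM over the 8 libraries after subtracting each gene's mean, among about 9310 named genes of at least 10 CPM. For Cemip the nearest were Sort1 (0.34), Plxdc2 (0.44) and Sema3c (0.52). Sort1 had 1.97 CPM in control, 11.1 in Brd, 8.74 in NM-DMSO and 22.5 in NM-Brdi. For Has2 they were Kif26b (0.13), Cyp1b1 (0.15) and Nlrc5 (0.20). Kif26b had 111 CPM in control and 32.7 to 40.3 CPM in the other groups. For Vcan they were Ror1 (0.15), Atp2b4 (0.15) and Rora (0.16), with Ror1 at 54.8 CPM in control, 44.1 in Brd, 13.7 in NM-DMSO and 15.3 in NM-Brdi. Hyal1 was nearest to Hic2 (0.07), Arel1 (0.08) and Glg1 (0.11), Has3 to Zfp142 (0.16), Atm (0.17) and Dgkq (0.18), and Has1 to Hspa1b (0.35), Myo1d (0.36) and Lgalsl (0.37). For Has1, Has3 and Hyal1, whose counts were low, this likeness rests on few reads. For Hyal1 some of these reads could also belong to Naa80.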

How the data were processed

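RNA of MC3T3-E1 cells was sequenced in 8 libraries. The tools named in the submitters' processing notes are STAR 2.7.10a, featureCounts 2.0.3, Trimmomatic 0.39 and FastQC 0.11.9. Those notes list GRCm38 beside GRCh38 as builds. Not given in the sources used here: annotation, strand setting and handling of multi-mapping reads. Deposited values are the authors' raw whole-number counts per gene. Genes were kept with filterByExpr and tested in 1 fit of all 8 libraries with edgeR 4.0.16 (TMM, glmQLFit, glmQLFTest, R 4.3.3), adjusted over 17038 genes and called under 0.05. SE comes from the F statistic. The biological coefficient of variation was 0.148. Alternatives were DESeq2 1.42.0, its size factors, limma 3.58.1 voom with quality weights, no filter, a replicate block, the libraries of a comparison alone and leaving out each library.

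Groups came from titles. Members and lists were chosen with earlier results of these data known. Named genes were the 9 members, up to 3 called genes per pathway list, direction and comparison, and the 3 most like in pattern. Bcan, Itih2, Adamts9, Nf2 and Fbn1 calls beyond that number are counted only. Positions and exon lengths are those of GENCODE M21 (GRCm38), not stated to be the annotation counted. With BLAST+ 2.17.0, Hyal1 with Naa80 was the sole match of a member to a listed gene over 200 bases at 95% identity. No library pair agreed within sampling noise. The list of other hyaluronidases and lysosomal enzymes is not reported in full here.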

Additional observations from a re-analysis of the deposited data

How the results depend on the processing

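Counts of called genes depended on the fit far more than fold changes did. With 1 library left out they ran from 36 to 5539 for Brd against control (1121 with all libraries), 8 to 9577 for NM-Brdi against NM-DMSO (318), 556 to 11265 for control against NM-DMSO (3988), 396 to 7691 for Brd against NM-Brdi (1789) and 0 to 7458 for the interaction (7). Members called ran from 1 to 4, 0 to 7, 2 to 9, 0 to 4 and 0 to 5. The upper ends came from fits without an NM-DMSO library, which take no spread from that group. A lone library in such fits is assumed to vary like the other groups, and its filter keeps more genes. With no filter on low counts the counts were 1848, 2453, 6274, 3198 and 608, with 2 members in the interaction. With voom they were 5876, 144, 2597, 7380 and 154, with 4 members in Brd against NM-Brdi and 2 in the interaction. With the libraries of the comparison alone they were 6413, 0 (1419 at an unadjusted p under 0.05), 371 and 7215. The comparisons after Brd against control then had 0, 2 and 4 members. Of the calls for control against NM-DMSO 83.8% were then higher, against 51.1% with all libraries. The DESeq2 Wald test called 917 for NM-Brdi against NM-DMSO and 300 for the interaction, with 2 members in the latter. The replicate block gave 188 for NM-Brdi against NM-DMSO and changed no call of a member. The numbers share no stated origin, and deviations of same-numbered libraries correlated at -0.00286 to 0.152 between groups. The cause of these differences was not tested.

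Of 621 recomputed log2 fold changes of members 27 changed sign, 0 of them called with all 8 libraries. Of these, 4 were for Brd against control (Has3 and Vcan, each without a Brd or a control library), at values under 0.1. For NM-Brdi against NM-DMSO the values without 1 library ran from -0.75 to 0.28 for Has1, -0.0019 to 0.47 for Has2, -0.18 to 2.16 for Has3, -0.018 to 1.02 for Hyal1, -0.16 to 0.042 for Cd44 and -0.38 to 0.56 for Vcan. Has2 in Brd against NM-Brdi ran from -0.069 to 0.28. The interaction ran from -0.25 to 0.033 for Cemip2, -2.28 to 0.043 for Has3, -0.59 to 0.44 for Hyal1, -0.17 to 0.042 for Cd44 and -0.59 to 0.35 for Vcan. For Hyal1 it was -0.0028 with the replicate block and -0.022 with voom. Has1 and Has3, at 8 to 87 counts per library, are limited by depth.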
